A study of Mus musculus with 6 samples.

Results

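Epyc, Prdm16 and Itih5 are 3 of the 4994 genes in an expression table of mouse inner ear organoids, chosen by their symbols as genes of the medial non-sensory floor of the cochlea that were higher with a MEK inhibitor. Their level in the inhibitor contrast is therefore what selected them, and it is given here as a description with no test. The PD organoids (n = 3) were grown for 10 days with 1 µM PD0325901, which blocks the kinases MEK1 and MEK2 and with them the activation of ERK. The DMSO organoids (n = 3) received an equal volume of the solvent over the same 10 days. The study asked how the inhibitor acts on the formation of hair cells, the sensory cells of the ear. Both groups were labelled as wild-type epithelial cells. Both shared a low-attachment culture in DMEM/F12 with the supplements N2 and B27, with IGF at 50 ng/mL, EGF at 20 ng/mL and bFGF at 10 ng/mL, and with 3 µM of the GSK3 inhibitor CHIR99021. The medium was renewed every 2 days, so both groups were exposed to growth factors and to an activator of Wnt signalling throughout. The strain, the age and region of the source tissue, and whether the samples of a group were separate cultures are not stated in the labels. Errors and p-values therefore cover only sample-to-sample spread within these libraries, and that spread may be technical.

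Kolliker's organ is a transient ridge of tall epithelial cells on the medial side of the developing organ of Corti. It secretes much of the tectorial membrane, the matrix that lies over the hair cells, and before the onset of hearing it releases ATP in bursts that excite nearby inner hair cells; later it is remodelled into the inner sulcus. Epyc encodes epiphycan, a small leucine-rich proteoglycan first known from epiphyseal cartilage. Prdm16 encodes a zinc finger transcription regulator with a PR domain, best known for directing the brown fat fate. Itih5 encodes a heavy chain of the inter-alpha-trypsin inhibitor family, secreted proteins that bind hyaluronan in the extracellular matrix.

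The regions just before the starts of the 3 genes are shown because the genes were high in the same samples. Each is the 250 bases before an annotated start, 5′ to 3′ on the gene's strand, from RefSeq on GRCm38.p6; all 3 genes matched, Epyc with 2 starts. Capitals mark letters that matched 1 of 4 short motifs on either strand, namely GGAATG (TEAD), ACAATG (SOX), CCGGAA (ETS) and TGANTCA (AP-1). The first line is Epyc at chr10:97643818-97644067 (plus strand), the second is Epyc before its other start at chr10:97646853-97647102 (plus strand), the third is Prdm16 at chr4:154636874-154637123 (minus strand) and the fourth is Itih5 at chr2:10153293-10153542 (plus strand).
Epyc, first start: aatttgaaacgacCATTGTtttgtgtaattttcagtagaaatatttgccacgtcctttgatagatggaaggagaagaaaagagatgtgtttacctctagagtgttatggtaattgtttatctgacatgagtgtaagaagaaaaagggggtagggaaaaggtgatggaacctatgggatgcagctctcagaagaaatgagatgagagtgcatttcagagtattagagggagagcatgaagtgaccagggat
Epyc, other start: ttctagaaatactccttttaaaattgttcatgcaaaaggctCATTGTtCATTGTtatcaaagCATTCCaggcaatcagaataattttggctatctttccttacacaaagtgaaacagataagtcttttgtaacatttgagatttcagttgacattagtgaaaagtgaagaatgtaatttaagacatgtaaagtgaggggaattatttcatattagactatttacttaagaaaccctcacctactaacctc
Prdm16: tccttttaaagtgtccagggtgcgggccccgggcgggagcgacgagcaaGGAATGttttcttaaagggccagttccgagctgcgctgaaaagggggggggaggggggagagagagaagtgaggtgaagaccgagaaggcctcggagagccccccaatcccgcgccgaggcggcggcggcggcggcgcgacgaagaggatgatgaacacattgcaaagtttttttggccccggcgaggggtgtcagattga
Itih5: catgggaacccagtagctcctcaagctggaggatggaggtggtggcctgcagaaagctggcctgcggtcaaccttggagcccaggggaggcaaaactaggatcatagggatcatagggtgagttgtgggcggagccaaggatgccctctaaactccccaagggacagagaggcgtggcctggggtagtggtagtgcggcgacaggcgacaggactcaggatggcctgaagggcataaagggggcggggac

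No motif occurred in front of all 3 genes. The SOX letters occurred in front of both Epyc starts, on the minus strand in each case, 1 time before the first and 2 times before the other. The TEAD letters occurred before the other Epyc start and before Prdm16, where they lay 196 to 201 bases ahead of the start. The letters of these 4 motifs were not found in the Itih5 window, and neither the ETS nor the AP-1 letters were found in any of the 4 windows. No 2 matches overlapped. Among 32851 mouse promoter windows of the same length, 12.6% held the TEAD letters, 10.7% the SOX letters, 12.0% the ETS letters and 6.75% the AP-1 letters, so these matches are a description and not sites. The windows also differed in base composition. GC content was 39.2% and 31.2% before the Epyc starts, 62.4% before Prdm16 and 61.2% before Itih5, against a median of 52.4% over all windows.

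The values are a normalized signal per gene whose scale is not stated in the file, so depth is unknown and levels are compared between samples and not between genes. Where the signals of a list are summed, the sum is compared between samples too, and its genes with the highest values weigh most in it. The authors kept only genes that differed between PD and DMSO in their own test, with a fold of at least 1.5 either way. Summed over the 4994 genes, the signal was 290560 to 296997 in the PD samples and 289255 to 293278 in the DMSO samples. With limma on log2(signal + 1), 2220 genes (44.5% of the table) were called higher in PD and 2550 (51.1%) lower at an adjusted p under 0.05, together 95.5%, and the median log2 difference over the table was -0.42. Values of the PD samples all lay above those of the DMSO samples in 44.6% of genes and all below them in 50.6%, so the groups did not overlap in 95.2% of genes. Of the epithelial markers looked up after the values were seen, Epcam, an epithelial adhesion gene, averaged 514 ± 15.7 in PD and 836 ± 31.7 in DMSO (SD, n = 3 each), and Cdh1, the E-cadherin gene, averaged 114 ± 9.27 in PD and 53.6 ± 1.54 in DMSO (SD, n = 3 each). The simple keratin genes Krt8 and Krt18 averaged 83.0 ± 9.43 and 89.1 ± 11.9 in PD, and 253.6 ± 2.16 and 484 ± 20.0 in DMSO (SD, n = 3 each). All 4 marks of the labelled cell type were present in every sample, Epcam, Krt8 and Krt18 at lower and Cdh1 at higher levels in PD. Of 18 ERK targets, taken as the sign of the inhibitor, 15 were listed, 14 called lower and 1, Myc, higher in PD. Dusp5, Fos and Fosl1 were not listed. Log2(signal + 1) understates changes of low genes. The largest differences on that scale were in the ETS factor gene Etv4 (log2 difference -3.74) and the ERK phosphatase genes Dusp6 (-3.50) and Dusp4 (-3.22). With them was the immediate early gene Egr1 (-3.34), whose ratio of means of 0.0231 was below the 0.0687 of Etv4.

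Epyc (ENSMUSG00000019936, mm10 chromosome 10, 97644068 to 97682454, plus strand) had a signal of 7186, 7115 and 7475 in the 3 PD samples, against 922, 1037 and 1038 in the DMSO samples. The groups were far apart, and the lowest PD sample stood 6.85 times above the highest DMSO sample. Epyc averaged 7259 ± 190.3 in PD and 999 ± 66.9 in DMSO (SD, n = 3 each), a ratio of means of 7.27 and a log2 difference of 2.86 ± 0.06 (SE). The PD samples were within 1.05-fold of each other, and the DMSO samples within 1.13-fold, with DMSO replicate 1 the low one.

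Prdm16 (ENSMUSG00000039410, mm10 chromosome 4, 154316125 to 154636873, minus strand) had a signal of 72.8, 72.2 and 80.4 in the PD samples, against 10.0, 13.3 and 11.4 in the DMSO samples. Here too every PD sample lay above every DMSO sample, the lowest PD value being 5.43 times the highest DMSO value. Prdm16 averaged 75.1 ± 4.58 in PD and 11.6 ± 1.65 in DMSO (SD, n = 3 each), a ratio of 6.49 and a log2 difference of 2.60 ± 0.11 (SE). It was the most variable of the 3 genes, with a coefficient of variation of 6.1% in PD and 14.3% in DMSO.

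Itih5 (ENSMUSG00000025780, mm10 chromosome 2, 10153571 to 10256529, plus strand) had a signal of 49.7, 50.8 and 50.2 in the PD samples, against 11.9, 12.7 and 12.7 in the DMSO samples. It was the least variable of the 3, with coefficients of variation of 1.08% in PD and 3.71% in DMSO, where the median gene with a mean of at least 10 had 7.16% in PD and 7.44% in DMSO. Itih5 averaged 50.2 ± 0.54 in PD and 12.5 ± 0.462 in DMSO (SD, n = 3 each), a ratio of 4.03 and a log2 difference of 1.93 ± 0.07 (SE).

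**Figure D1:**
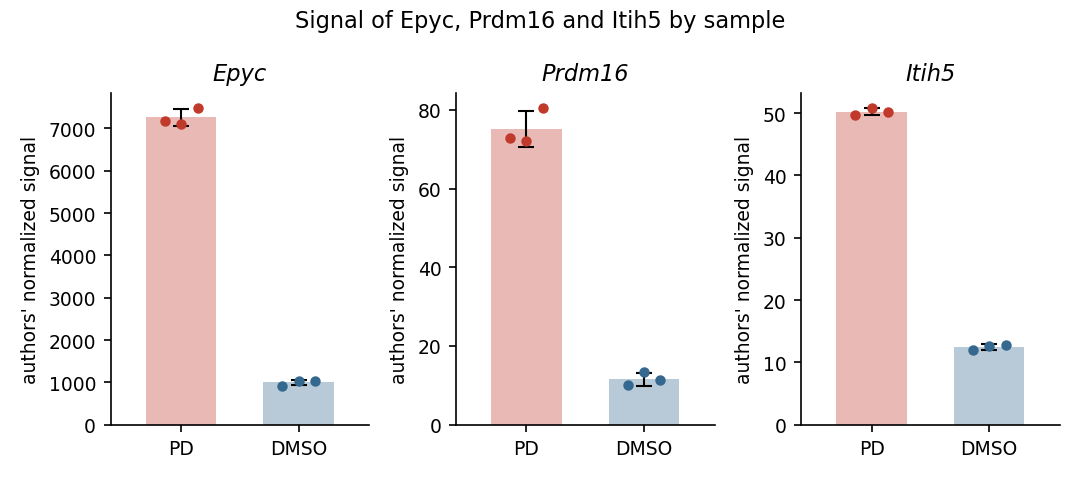
Normalized signal of Epyc, Prdm16 and Itih5 in each of the 3 PD and 3 DMSO samples, on linear axes that start at 0. Points are samples, bars are group means and error bars are SD; in all 3 genes the PD points lie well above the DMSO points, and the ratio of means is 7.27 for Epyc, 6.49 for Prdm16 and 4.03 for Itih5.

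The 3 genes differed in size of change more than in direction. Epyc and Prdm16 were close, with log2 differences 0.26 ± 0.12 apart (SE, taking both errors as independent), whereas Itih5 lay 0.93 ± 0.09 below Epyc and 0.68 ± 0.13 below Prdm16. Ranked by log2 difference over the 4994 genes from the highest, Epyc was number 44, Prdm16 number 66 and Itih5 number 169. That scale understates changes of low genes. Ranked by ratio of means, among genes with a DMSO mean above 0, they were number 275, 322 and 557. The order of Epyc and Prdm16 turned after quantile normalization, with log2 differences of 2.727 for Epyc and 2.734 for Prdm16. In the authors' deposited table the folds of PD over control were 7.609 for Epyc, 6.027 for Prdm16 and 3.928 for Itih5, which gives the same order. The 3 genes deviated from their group means in the same direction in some samples and not in others. In PD replicate 3, Epyc was 2.97% and Prdm16 7.03% above the PD mean, and Itih5 stood at -0.0266% from it. In DMSO replicate 1 all 3 genes were below the DMSO mean, at -7.73% for Epyc, -13.5% for Prdm16 and -4.28% for Itih5. In DMSO replicate 2 all 3 were above it, by 3.82% for Epyc, 14.9% for Prdm16 and 1.98% for Itih5. RNA was measured in bulk, so more cells that express a gene and more RNA per cell cannot be told apart.

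The chromosomal neighbours of the 3 genes were examined over 250 kb to each side, a window chosen after values were seen. Epyc is the last gene of a run of 4 small leucine-rich proteoglycan genes on the plus strand of chromosome 10, after Dcn, Lum and Kera, which encode decorin, lumican and keratocan. All 3 were listed and all 3 were called higher in PD, in a table kept for differing genes of which 44.5% were called higher. Kera, the nearest at a gap of 30.4 kb, had a signal of 3.23, 2.52 and 3.13 in PD, against 0.12, 0.35 and 0.36 in DMSO (log2 difference 1.63 ± 0.13, SE, limma adjusted p = 1.91e-05). Lum, at 71.4 kb, averaged 1794 ± 132 in PD and 619 ± 42 in DMSO, and Dcn, at 125.9 kb, averaged 1603 ± 105 in PD and 767 ± 50.9 in DMSO (SD, n = 3 each). The log2 differences were 1.53 for Lum and 1.06 for Dcn, both below that of Epyc.

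On the other side, the long non-coding RNA gene Gm10754 (chromosome 10, 97681414 to 97967090, minus strand) runs towards Epyc and overlaps its end. Its signal was 94.0, 99.2 and 103 in PD, against 9.04, 9.57 and 9.79 in DMSO, with no overlap between the groups and a ratio of means of 10.4. The annotated exons of Gm10754 and Epyc share 1041 bases, which is 40.6% of the exonic bases of Epyc and 63.7% of those of Gm10754. The libraries were made with a stranded kit per the labels, but how the counting used strand is not given in the sources used here, so reads of Gm10754 and Epyc cannot be told apart in the shared bases. The other 2 annotated coding genes in the window were not listed.

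Prdm16 had a partner on the opposite strand, listed by the authors as Prdm16os and named Gm13111 in GENCODE M21 (ENSMUSG00000085069, chromosome 4, 154637576 to 154644724, plus strand). The starts of the 2 genes are 703 bases apart, they are transcribed away from each other, and their annotated spans share 0 bases. Prdm16os had a signal of 19.9, 16.8 and 20.4 in PD, against 1.26, 0.86 and 0.77 in DMSO, so all PD samples were again higher. Its log2 difference was 3.35 ± 0.14 (SE, limma adjusted p = 1.48e-06) and its ratio of means was 19.8, beside 6.49 for Prdm16. Farther out on the same side, the long non-coding RNA gene Gm27202, at a gap of 8.21 kb from Prdm16, had 25.5, 28.7 and 20.3 in PD, against 1.06, 0.37 and 0.34 in DMSO, with a log2 difference of 4.04 ± 0.21 (SE, adjusted p = 2.98e-06 by limma) that ranked number 4 of the table. Gm13110, next to it, was also called higher, at 1.36 ± 0.36 in PD and 0.153 ± 0.0404 in DMSO (SD, n = 3 each).

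Beyond the far end of Prdm16 the neighbours went both ways. Megf6, which encodes a protein with EGF-like repeats, lies 40.4 kb away and was called lower, at 11.9 ± 1.17 in PD and 28.5 ± 3.39 in DMSO (SD, n = 3 each). The authors' deposited fold of PD over control for Megf6 was 0.606, a smaller change than the ratio of means of 0.419. Tprgl, 155.5 kb away, was called higher, at 46.3 ± 2.63 in PD and 20.1 ± 1.68 in DMSO (SD, n = 3 each). In all, 4 of the 5 listed genes in the Prdm16 window were called higher and 1 lower, of 18 annotated genes, in a table kept for differing genes of which 44.5% were called higher.

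Itih5 lies head to head with Itih2, another heavy chain gene of its family, with a gap of 22.2 kb between them. Itih2 was the only listed gene of the Itih5 window, where 5 coding genes are annotated beside Itih5. Its signal was 4.18, 2.88 and 4.14 in PD, against 0.9, 0.62 and 0.54 in DMSO, and the log2 difference was 1.48 ± 0.16 (limma adjusted p = 8.04e-05, SE). The groups did not overlap for Itih2, and its ratio of means was 5.44, beside 4.03 for Itih5.

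**Figure D2:**
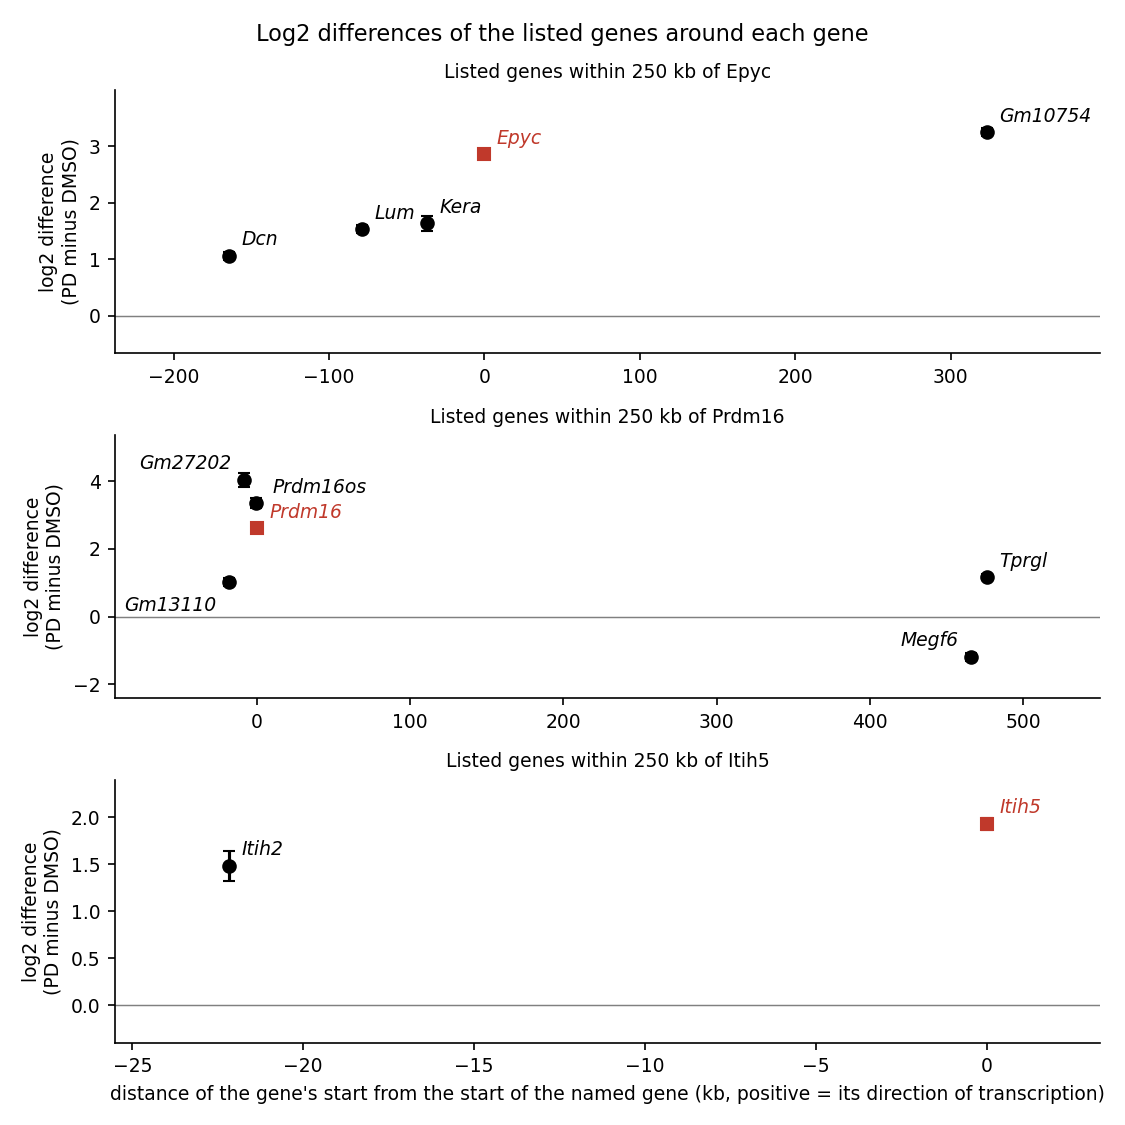
Log2 difference (PD minus DMSO, of log2(signal + 1)) of each listed gene within 250 kb of Epyc, Prdm16 or Itih5, against the distance of its start from the start of that gene in kb, positive in that gene's direction of transcription. Squares are the 3 genes, circles their neighbours and error bars SE; every neighbour lies above 0 except Megf6 at -1.19.

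Relatives of the 3 genes were taken from lists, which also hold the neighbours Dcn, Lum, Kera and Itih2 given above. Of 14 other small leucine-rich proteoglycan genes, 9 were listed, with Dcn, Lum and Kera among them. Of the 9, 8 were called higher and 1 lower, beside 44.5% called higher and 51.1% lower over the table. Their median log2 difference was 1.03, beside -0.42 over the table. With a pseudocount of 5 in place of 1 it was 0.47, beside -0.13 over the table. Ogn, which encodes osteoglycin and belongs to the same class as Epyc, had the largest log2 difference of the 9, at 426, 342 and 442 in PD, against 64.1, 74.9 and 71.8 in DMSO (log2 difference 2.50 ± 0.11, SE, on the log2(signal + 1) scale). Optc, which encodes opticin, the remaining member of that class, was the one called lower, listed at 0 in all PD samples and at 0.18, 0.67 and 0.43 in DMSO. Aspn, the asporin gene, was the reverse, at 0.28, 0.54 and 0.31 in PD and listed at 0 in all DMSO samples.

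Of 16 genes related to Prdm16, 3 were listed. Prdm11 was called higher, at 16.2, 16.9 and 16.6 in PD, against 3.87, 4.48 and 4.08 in DMSO (log2 difference 1.77). Prdm9, which marks sites of meiotic recombination in germ cells, was called lower, at 5.65 ± 0.201 in PD and 18.0 ± 1.3 in DMSO (SD, n = 3 each). Zfpm2, a cofactor of GATA factors, was called higher at a log2 difference of 0.72. Of 11 genes for proteins reported to bind Prdm16, 3 were listed: the SMAD corepressor genes Ski, called higher (0.77), and Skil, called lower (-1.16), and the TGF-beta effector gene Smad3, called lower (-0.54). Of 12 brown fat genes 2 were listed. Ebf2, an early brown fat factor, averaged 1.03 ± 0.278 in PD and 0.0933 ± 0.0513 in DMSO, and Dio2, the thyroid hormone deiodinase gene, averaged 0.963 ± 0.085 in PD and 2.15 ± 0.261 in DMSO (SD, n = 3 each), the first called higher and the second lower.

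Itih2 was the only listed gene of 6 other inter-alpha-trypsin inhibitor genes. Of 24 symbols for genes of hyaluronan synthesis, breakdown and binding, 10 were listed. Of the 10, 4 were called higher and 6 lower, beside 44.5% and 51.1% of the table. Cemip2, among the 4, is the gene also named Tmem2, a symbol that was counted as not listed. Cemip, which encodes a protein needed for hyaluronan breakdown, was at 13.0, 10.3 and 14.1 in PD, against 0.25, 0.27 and 0.28 in DMSO (log2 difference 3.40 ± 0.14, SE). Tnfaip6, which encodes the enzyme that couples heavy chains of the Itih family to hyaluronan, was called higher as well, at 4.52 ± 0.346 in PD and 0.78 ± 0.0608 in DMSO (SD, n = 3 each). The hyaluronan receptor gene Hmmr, also a mitotic gene, and the proteoglycan gene Vcan were called lower, with log2 differences of -2.34 and -1.61. The synthase genes Has1 and Has2 were called lower from levels near 1 or less, at 0.40 ± 0.217 and 0.0367 ± 0.0153 in PD and 1.29 ± 0.145 and 0.49 ± 0.111 in DMSO (SD, n = 3 each).

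The label of a Kolliker's organ programme was checked with 19 other genes of the medial cochlear floor. Of these, 13 were listed, 6 called higher, 6 called lower and 1 not called, a share called higher of 46.2% beside 44.5% over the table, and the median log2 difference was -0.70, beside -0.42 over the table. With a pseudocount of 5 the median of the list was -0.31, beside -0.13 over the table. After median-ratio rescaling it was -0.42, beside -0.18 over the table. The summed signal of the 13 was 2051 to 2209 in PD and 958 to 1135 in DMSO. Most of it came from Dcn, at 1603 ± 105 in PD and 767 ± 50.9 in DMSO (SD, n = 3 each). Calb1, a calcium buffer gene, was higher at 9.99, 14.6 and 10.3 in PD, against 0.17, 0.17 and 0.92 in DMSO. P2ry1, the gene of a purinergic receptor of these cells, was higher at 24.2, 26.2 and 27.4 in PD, against 4.66, 5.45 and 6.31 in DMSO. Both genes separated the groups in the same direction as Epyc, Prdm16 and Itih5.

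Other medial genes did not. Ano1, the gene of the chloride channel through which ATP drives these cells to shrink and depolarise hair cells, was lower, at 0.92, 0.78 and 1.25 in PD, against 9.80, 8.52 and 7.45 in DMSO (log2 difference -2.27 ± 0.15, SE, limma adjusted p = 8.55e-06). Jag1 (-0.76), a Notch ligand gene, the nuclear receptor gene Rorb (-0.98) and Sox2 (-0.70), a factor of the sensory progenitors, were also called lower. Levels were low for Rorb, at 0.32 ± 0.0361 in PD and 1.61 ± 0.204 in DMSO (SD, n = 3 each). They were low too for Sox2, at 1.64 ± 0.387 in PD and 3.33 ± 0.84 in DMSO (SD, n = 3 each). The log2(signal + 1) scale understates such changes. Sox2 is also in the list of supporting cell and prosensory markers. Ednrb, an endothelin receptor gene, was not called, with 0.65, 1.43 and 0.99 in PD, against 2.43, 2.42 and 82.7 in DMSO; without DMSO replicate 3 it was called lower at a log2 difference of -0.78, and without DMSO replicate 2 at -3.08. Tecta, Fgf10, Lfng, Gjb2, Gjb6 and Slc1a3 were not listed. The 3 genes are therefore called by their names here and not by a cell type.

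Of 12 genes of the tectorial membrane, which Kolliker's organ helps to build, 8 were listed, 7 called higher and 1 lower. The share called higher over the table was 44.5%. Their median log2 difference was 1.31. Of the 7, Otoa and Tectb are also in the medial floor list, and the other 5 are collagen genes also in the cartilage list. Tecta, Ceacam16, Otogl and Col2a1 were not listed. Otoa, which encodes the protein that attaches the membrane to the medial cells, averaged 417 ± 34.9 in PD and 143 ± 10.9 in DMSO, and Tectb, the beta-tectorin gene, averaged 15.4 ± 3.74 in PD and 4.53 ± 1.65 in DMSO (SD, n = 3 each). Col11a2, a fibrillar collagen gene, had 928, 948 and 952 in PD, against 102, 113 and 117 in DMSO. Otog, which encodes otogelin, was the one called lower (log2 difference -1.85). Genes of the lateral floor and the roof gave 5 higher, 2 lower and 1 not called of 8 listed, against the same 44.5% of the table called higher, with Lmx1a, a roof transcription factor gene, at 1.73 and Slc26a4, the pendrin gene, at 1.36, against Vmo1 at -1.52 and Bmp4 at -1.47; in Bmp4, DMSO replicate 2 stood at 12.97 and the other DMSO samples at 2.95 and 4.71.

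Markers of cartilage moved with Epyc, which is itself a cartilage gene. Of 18 such markers 10 were listed, and all 10 listed ones were called higher, beside 44.5% of the table, 5 of them collagen genes that the tectorial membrane list holds too. The summed signal of the 10 was 7344 to 7804 in PD and 2109 to 2335 in DMSO. Matn1, the matrilin-1 gene, had 20.3, 24.0 and 16.5 in PD, against 0, 0.05 and 0.19 in DMSO. Cnmd, the chondromodulin gene, averaged 2517 ± 120 in PD and 306 ± 9.35 in DMSO, and Ucma, another cartilage matrix gene, averaged 18.1 ± 1.5 in PD and 3.98 ± 2.61 in DMSO (SD, n = 3 each). Acan, Sox9, Col2a1, Comp, Matn3, Snorc, Hapln1 and Col10a1 were not listed. Markers of fibroblasts and mesenchyme gave 8 higher, 3 lower and 2 not called of 13 listed, beside 44.5% higher and 51.1% lower over the table, with a summed signal of 4025 to 4541 in PD and 1846 to 2037 in DMSO. Among them Pou3f4 (2.13) and Tbx18 (2.08), factors of the otic mesenchyme, and Lum were higher, Fn1, the fibronectin gene, was lower (-1.38), and the collagen gene Col1a1 was not called, at 0.67 ± 0.616 in PD and 0.903 ± 0.246 in DMSO (SD, n = 3 each). The part of these cell types in the levels of Epyc, Prdm16 and Itih5 was not tested.

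**Figure D3:**
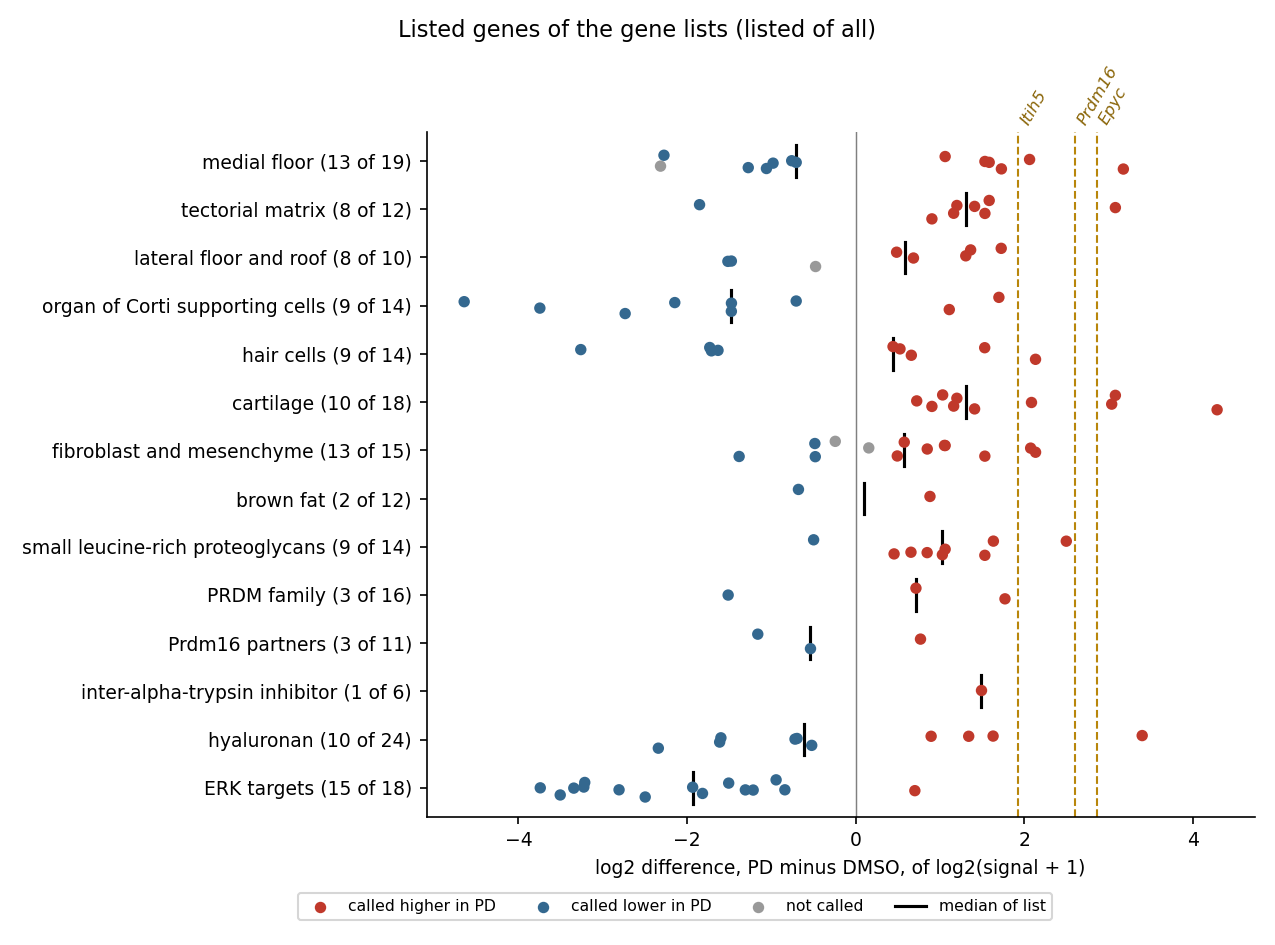
Log2 difference (PD minus DMSO, of log2(signal + 1)) of the listed genes of 14 lists, 1 point a gene, with the number listed and the size of each list in brackets. Points are coloured by the limma call, the black bar is the median of the list and dashed lines mark Itih5, Prdm16 and Epyc at 1.93, 2.60 and 2.86; medial floor genes lie on both sides of 0, and all 10 listed cartilage genes lie above it.

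The genes with the most similar profile were found by the root mean square difference of log2(signal + 1), centred on each gene's mean over the 6 samples, among 3264 genes whose PD mean and DMSO mean both reached 1. Since the table was selected for differing between the groups, similarity here mostly reflects the size of that difference. The size is on the log2(signal + 1) scale, which understates changes of low genes. Closest to Epyc were Timp2 (0.069), a metalloprotease inhibitor gene, Tgfb2 (0.079), a TGF-beta ligand gene, Wnt9a (0.087), a Wnt ligand gene, and Cnmd (0.096). Tgfb2 averaged 445 ± 24.2 in PD and 56.1 ± 1.47 in DMSO, and Timp2 averaged 261 ± 9.34 in PD and 36.9 ± 2.5 in DMSO (SD, n = 3 each). Wnt9a averaged 15.4 ± 1.27 in PD and 1.26 ± 0.114 in DMSO (SD, n = 3 each). Ratios of means were 7.09 for Timp2, 7.93 for Tgfb2, 12.2 for Wnt9a and 8.24 for Cnmd, beside 7.27 for Epyc.

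Closest to Prdm16 were Gxylt2 (0.062), which encodes a xylosyltransferase that acts on Notch EGF repeats, Tmem132c (0.064), the proprotein convertase gene Pcsk5 (0.094) and the cadherin gene Cdh4 (0.095). Tmem132c averaged 251.5 ± 7.92 in PD and 38.5 ± 3.15 in DMSO, and Gxylt2 averaged 18.6 ± 0.622 in PD and 2.16 ± 0.244 in DMSO (SD, n = 3 each). Ratios of means were 8.62 for Gxylt2, 6.53 for Tmem132c, 9.64 for Pcsk5 and 8.21 for Cdh4, beside 6.49 for Prdm16. Closest to Itih5 were Meltf (0.036), the melanotransferrin gene, Tmem64 (0.050), Id4 (0.055), an inhibitor of helix-loop-helix factors, and Mxd4 (0.057), a partner of Max. Meltf averaged 55.1 ± 1.11 in PD and 14.2 ± 0.393 in DMSO (SD, n = 3 each). Within a distance of 0.1 there were 5 genes for Epyc, 4 for Prdm16 and 20 for Itih5. Epyc and Prdm16 were 0.149 apart, and Itih5 was 0.468 from Epyc and 0.352 from Prdm16, so none of the 3 was among the 4 genes closest to another.

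**Figure D4:**
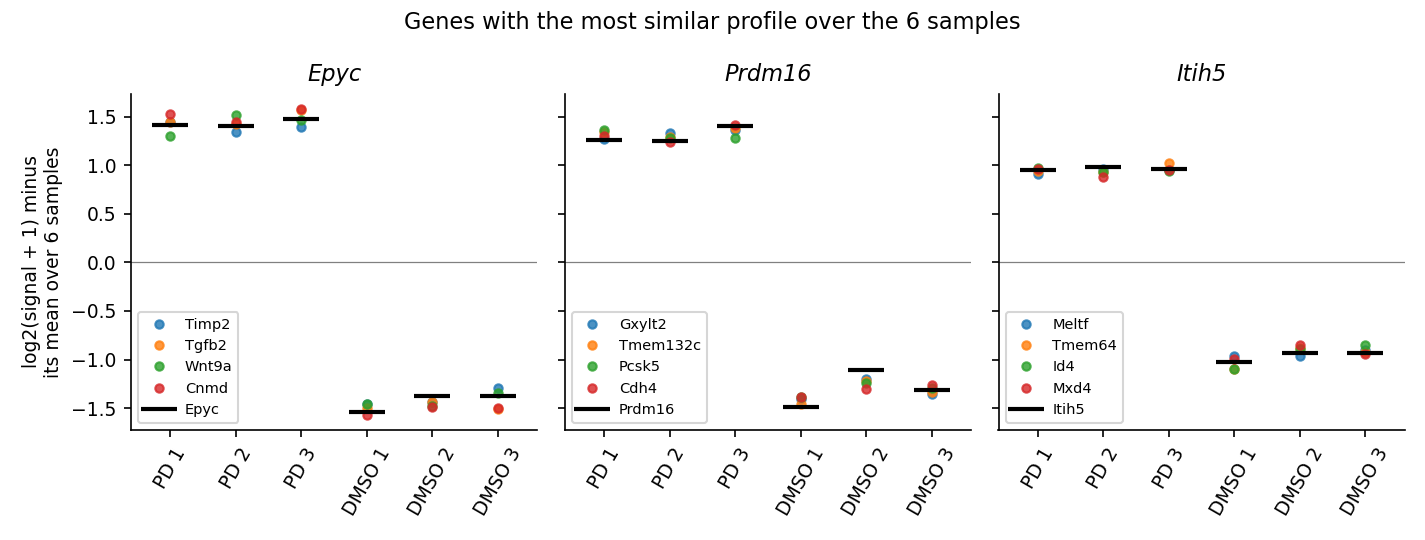
Profiles of Epyc, Prdm16 and Itih5 (black bars) and of the 4 genes most similar to each (coloured points) over the 3 PD and 3 DMSO samples, as log2(signal + 1) minus the mean over the 6 samples. The points lie close to the bars in every sample, at root mean square distances of 0.036 to 0.096.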

How the data were processed

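RNA-seq of 3 PD and 3 DMSO samples was analysed from 1 deposited table; columns were matched to samples by name, with 0 columns left over. Build mm10 and the tools HISAT2, Trimmomatic, DESeq2 and HTSeq are listed, without versions, per the submitters' processing notes; annotation and strandedness of the counting were not given in the sources used here. Per the file headers the authors kept genes with a fold of 1.5; the deposited values are a normalized signal rounded to 2 decimals, not counts, so no counting interval is given. The authors also deposited group means, a fold (a ratio) with its log2 value, and raw and adjusted p-values per gene; the largest deposited adjusted p is 0.0499.

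Log2(signal + 1) of all 4994 genes was fitted with limma 3.58.1 (R 4.3.3, trend on level, no filter, no block), with Benjamini-Hochberg adjustment over the table and calls at 0.05; the procedure was first tested on simulated data. Log2 differences are on this scale, which understates changes of low genes. Epyc, Prdm16, Itih5 and the 14 lists were chosen with earlier results of these data known. Genes named are these 3, the 4 most similar to each, the 4 of each list with the largest log2 difference, and listed neighbours; any others were chosen after their values were seen. Positions are from GENCODE M21 (GRCm38, 1-based; 4988 identifiers found, 6 not), promoters from RefSeq GRCm38.p6. Python 3.11.15 and pandas 2.3.3 were used. Alternatives covered pseudocount, filter, scaling, trend, replicate block and leaving out each sample.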

Additional observations from a re-analysis of the deposited data

How the results depend on the processing

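Epyc, Prdm16 and Itih5 stayed higher in PD under every alternative run. Rescaling by the median ratio, which moved the median of the table by 0.24, gave log2 differences of 3.22 for Epyc, 2.94 for Prdm16 and 2.27 for Itih5. Quantile normalization, which moved that median by 0.11, gave 2.727 for Epyc, 2.734 for Prdm16 and 2.05 for Itih5. A pseudocount of 5 gave 2.28 for Prdm16 and 1.66 for Itih5, a pseudocount of 0.1 gave 2.00 for Itih5, and the log2 ratio of mean values gave 2.01 for Itih5. The counts called in the table and in the medial floor and cartilage lists kept within 1.5 times of those reported under every alternative. Medians of short lists with low values reversed: for brown fat to -0.0094 with a pseudocount of 5 and to -0.68 with a filter of at least 1 in 3 samples, and with that filter for hair cells to -1.67, where the genes called higher numbered 2 and not 5, and for hyaluronan to 0.088. With the replicate number as a block, 2217 genes were called higher and 2544 lower. Among the genes that the naming rule selects the block changed the call of Ednrb alone. Over the whole table same-numbered samples did not deviate together (correlations of -0.0318, -0.00522 and -0.00128). Such a correlation over all genes cannot show whether the samples were paired, since a pairing could act on some genes only. The table holds only genes that differed in the authors' test, with unknown depth and 3 samples a group.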

Other observations

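Markers of the sensory part of the cochlea were listed too, and did not move as one. Of 14 supporting cell and prosensory markers 9 were listed, 2 called higher and 7 lower in PD, beside 44.5% higher and 51.1% lower over the table, with a median log2 difference of -1.47. The higher ones, Mia and Fam107a, averaged 2022 ± 282 and 864 ± 24.1 in PD and 619 ± 35.2 and 400 ± 13.0 in DMSO (SD, n = 3 each). With them, the summed signal of the 9 was 2759 to 3263 in PD and 1297 to 1410 in DMSO. Ngfr, a neurotrophin receptor gene of pillar cells, averaged 0.193 ± 0.121 in PD and 28.7 ± 1.5 in DMSO, and the Notch effector gene Hey2 averaged 4.18 ± 0.297 in PD and 68.4 ± 2.43 in DMSO (SD, n = 3 each). Hey1 and the progenitor receptor gene Lgr6 were lower by log2 differences of -2.73 and -2.14. Of 14 hair cell markers 9 were listed, 5 called higher and 4 lower, beside 44.5% higher and 51.1% lower over the table, and 2 higher with the filter on low values. They had summed signals of 21.9 to 24.9 in PD and 45.3 to 56.3 in DMSO. Espn alone gave 2.59, 2.52 and 2.27 of this in PD and 27.14, 35.95 and 33.94 in DMSO. Espn, the bundle crosslinker gene, averaged 2.46 ± 0.168 in PD and 32.3 ± 4.62 in DMSO, whereas Ptprq, a bundle phosphatase gene, averaged 6.01 ± 0.882 in PD and 0.59 ± 0.0954 in DMSO (SD, n = 3 each). Rasd2 and Cdh23 were lower, with log2 differences of -1.73 and -1.71.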
